A study of Danio rerio with 5 samples.

Results

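The genes described here belong to serine synthesis, one-carbon metabolism and the ATF4 response, measured in EGFP+ cells that were sorted from zebrafish neuroblastomas driven by MYCN. They are *phgdh*, *psat1*, *psph*, *shmt1*, *shmt2*, *mthfd2*, *atf4a*, *atf4b*, *asns* and *chac1*, and were chosen by name. All 10 were found among the 30647 gene names of the expression files. The *lmo1*-/- tumors, of genotype dβh:EGFP;MYCN;*lmo1*-/-, gave 3 libraries and the *TATA/TATA* tumors, of genotype dβh:EGFP;MYCN;*TATA/TATA*, gave 2 libraries. Both genotypes carry the MYCN and EGFP transgenes under the dopamine β-hydroxylase promoter, on the AB background, and the tumors came from juvenile fish whose ages the labels do not give. The *lmo1*-/- fish descend from 1 line with a CRISPR-Cas9 mutation that puts a premature stop codon in exon 2 of *lmo1*. The *TATA/TATA* fish descend from 1 knock-in line, in which a T replaces the G of a GATA site in the first intron of *lmo1*, together with 2 further base changes beside it. No tumor with the unedited GATA site is analysed here, so each comparison is between 2 edited genotypes. The labels do not say whether the libraries of a genotype came from separate fish, and the p values measure only the spread between these libraries.

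Serine is made from a glycolytic intermediate in 3 enzymatic steps, and its side chain carbon is passed to folate by the serine hydroxymethyltransferases. The carbon units on folate are used for thymidylate, purines and methionine. ATF4 is the transcription factor of the integrated stress response: when eIF2α is phosphorylated, translation of ATF4 mRNA rises, and ATF4 then activates genes for amino acid synthesis, amino acid transport and tRNA charging, including PHGDH, PSAT1, ASNS and CHAC1 in mammals. In human neuroblastoma, MYCN and ATF4 are both known activators of the serine and one-carbon genes. Zebrafish have a pair of ATF4 genes, *atf4a* and *atf4b*. RNA-Seq reads the mRNA of these genes and not the translation of ATF4.

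The edited gene itself, *lmo1*, stood at 24.6, 21.0 and 41.9 RPKM in *lmo1*-/- libraries and at 13.6 and 12.7 RPKM in *TATA/TATA* libraries. Counts per gene do not show the stop codon or the knock-in, so these levels do not check the labels. The *lmo1*-/- libraries held 48144549 to 55782865 counted reads, and the *TATA/TATA* libraries 55162290 and 52920125. Expression is given as RPKM, reads scaled by exon length and by the mapped reads of the library. The most abundant gene of a list is the one with the highest mean RPKM over the 5 libraries, and it need not lead in each genotype. The detection floor of 3 counts is 0.0386 to 0.0467 RPKM on 1 kb of exon, and it covers counting error alone. The *TATA/TATA* libraries were closer to each other (chi-square over degrees of freedom, 11.5) than any pair of *lmo1*-/- libraries (136 to 171), and all pairs differed by more than sampling noise. Ribosomal protein genes took 35.2% to 43.3% of the counts in *lmo1*-/- libraries, against 21.7% and 22.1% in *TATA/TATA* libraries. The scaling of the libraries moved the fold changes: over the 13484 tested genes the log2 fold change had a median of 0.047 with TMM normalization in edgeR, and of -0.41 with the totals that the authors used for RPKM. Each log2 fold change below is *lmo1*-/- over *TATA/TATA* after TMM normalization, with edgeR's quasi-likelihood test and Benjamini-Hochberg adjustment over all tested genes, and the value with the authors' totals is set beside it where the call or the direction differs.

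Markers of other cells and of the cell cycle also differed between the genotypes. Of 22 tested macrophage markers, 19 were lower in *lmo1*-/- tumors, compared with 19.9% of all tested genes. Of these, *mpeg1.2*, *csf1rb* and *grn2* reached 1 RPKM in the *TATA/TATA* libraries alone. They were tested only through the genotype where they were higher, so their calls add little to the count. The summed levels of the 22 were 143 to 237 RPKM, against 3295 and 3451 RPKM in *TATA/TATA* tumors. *cd74a*, the most abundant of them, stood at 67.0, 54.5 and 76.7 RPKM in *lmo1*-/- libraries and at 1300.1 and 1330.6 RPKM in *TATA/TATA* libraries. The summed level of 8 neutrophil markers was 25.6, 40.0 and 111.6 RPKM in *lmo1*-/- libraries, against 219.1 and 241.6 RPKM in *TATA/TATA* libraries, and that of 13 lymphoid markers was 27.4 to 84.8 RPKM, against 1085 and 1329 RPKM. *lyz*, a neutrophil lysozyme gene, stood at 11.6, 24.9 and 75.5 RPKM, against 83.2 and 87.9 RPKM. It was not called lower (log2 fold change -0.81, edgeR adjusted p = 0.38), and after TMM scaling its levels in the genotypes overlapped. *nkl.2*, of cytotoxic lymphocytes, was the most abundant lymphoid marker, at 79.1, 28.9 and 22.7 RPKM, against 1035 and 1266 RPKM. It made up most of the lymphoid sums. *rag2*, of the same list, stood at 2.21 to 2.59 RPKM, against 2.22 and 2.69 RPKM, and was not called. Of the markers of these 3 blood lineages, *pax5* alone was at 0 in every library. Of 18 proliferation markers, 13 were lower in *lmo1*-/- tumors, compared with 19.9% of all tested genes. The 13 include *aurka* and *ccna2*, which also reached 1 RPKM in the *TATA/TATA* libraries alone. The summed levels of the 18 were 172.7, 96.1 and 184.3 RPKM, against 338.7 and 344.4 RPKM. *pcna*, the sliding clamp of DNA replication, was the most abundant of these, at 35.3 to 69.9 RPKM against 132 and 138 RPKM. Of 18 tested sympathoadrenal markers, 6 were higher in *lmo1*-/- tumors, compared with 16.7% of all tested genes. The lower ones were 2, *insm1a* and *stmn2b*, compared with 19.9%. With the authors' totals 4 were higher and 2 lower, compared with 6.44% and 29.7% of all tested genes. The median log2 fold change of the list was 0.37 with TMM and -0.078 with the authors' totals. *insm1a*, a neuroendocrine transcription factor gene, stood at 6.56, 3.88 and 27.0 RPKM in *lmo1*-/- libraries, against 123 and 117 RPKM in *TATA/TATA* libraries. The most abundant of them, *th*, which codes for tyrosine hydroxylase, stood at 546 to 884 RPKM in *lmo1*-/- libraries and 465 and 454 RPKM in *TATA/TATA* libraries. In sorted bulk cells, fewer cells of a type and less RNA per cell cannot be told apart, and the part of these cell types and of the cell cycle in the results below was not tested.

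Of the 10 genes, 3 were lower in *lmo1*-/- than in *TATA/TATA* tumors at an adjusted p under 0.05 (edgeR), namely *asns*, *shmt1* and *chac1*, compared with 19.9% of all tested genes. None was higher in the same test, compared with 16.7% of all tested genes. At an unadjusted p under 0.05, 3 were lower and 1, *psat1*, was higher in edgeR, compared with 23.8% and 22.5% of all tested genes. DESeq2 called 3 lower and 1 higher, compared with 22.9% and 20.1% of all tested genes, and limma on log2(RPKM + 0.1) called 7 lower and 0 higher, compared with 31.9% and 6.72%. Over the 10 genes the log2 fold change had a median of -0.57, against 0.047 over all tested genes, and 7 of the 10 values were below 0. With the authors' totals 6 of the 10 were called lower and 0 higher, compared with 29.7% and 6.44% of all tested genes, and the median was -1.04, against -0.41. In RPKM, 8 of the 10 genes showed no overlap between the genotypes, all lower in *lmo1*-/- tumors, and 54.2% of all tested genes had that pattern. None lay higher without overlap, compared with 14.1%. After TMM scaling 7 genes lay lower without overlap, compared with 32.3% of all tested genes, and 2 lay higher, compared with 33.0%. The *TATA/TATA* group rests on 2 libraries, and with either of them left out no member passed the threshold in edgeR, and of all tested genes 11.1% and 10.4% were then called lower and 3.4% and 3.31% higher. At an unadjusted p under 0.05, *asns*, *shmt1* and *chac1* were lower without *TATA/TATA* replicate 1 and *asns* and *shmt1* without replicate 2, compared with 17.6% and 17.1% of all tested genes, and 0 members were higher in either, compared with 11.9% and 11.7%. Without *lmo1*-/- replicates 1, 2 and 3 in turn, 3, 2 and 4 members were lower, compared with 24.9%, 18.2% and 21.2% of all tested genes, and 0, 1 and 0 were higher, compared with 23%, 15.1% and 14.7%. With the replicate number as a block, 4 members were lower and 0 higher, compared with 22.3% and 17.2%.

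**Figure D1:**
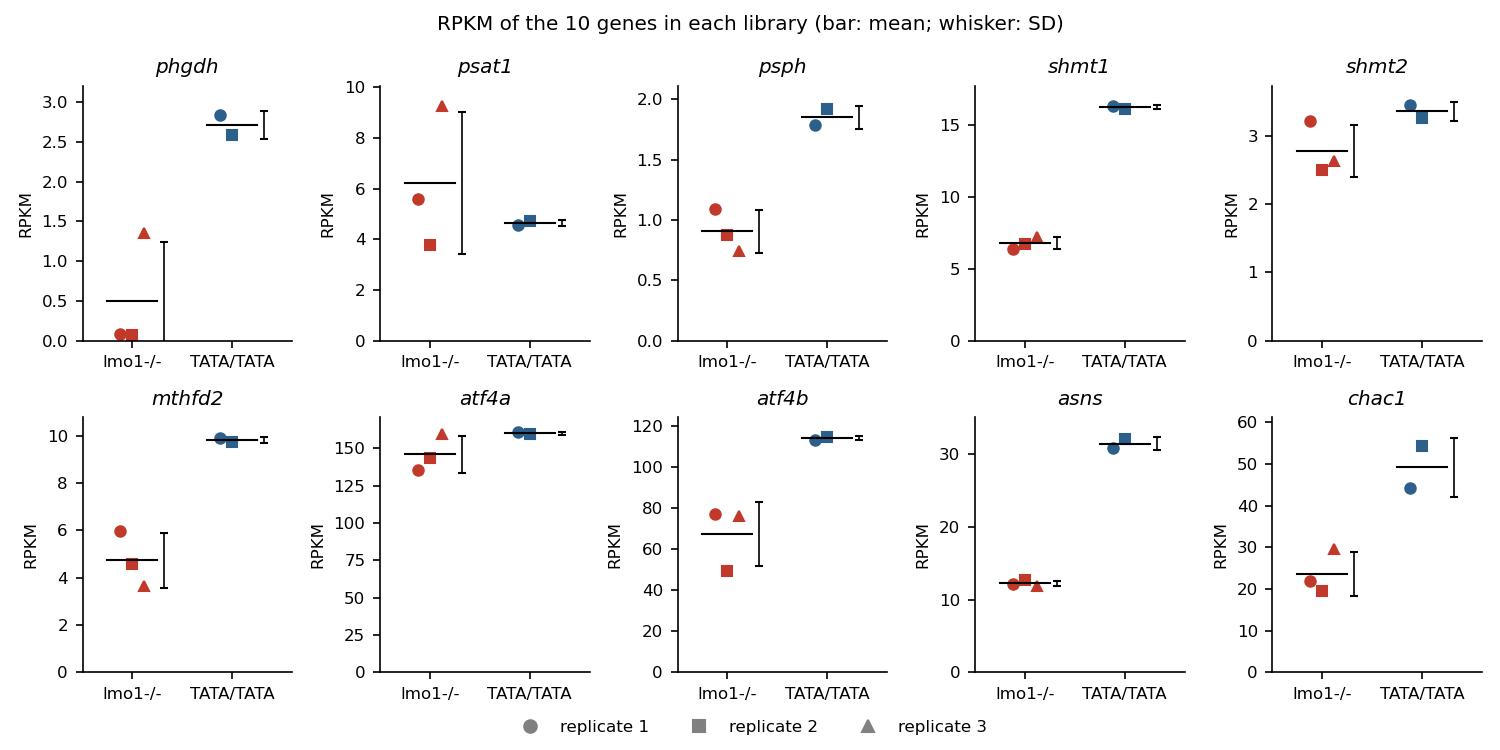
RPKM of the 10 genes in each library, 1 panel per gene with its own linear axis from 0, *lmo1*-/- in red and *TATA/TATA* in blue, with the mean as a bar and the SD as a whisker (n = 3 and n = 2, and the lower end of the *phgdh* whisker is clipped at 0). In *asns* and *shmt1* the *lmo1*-/- libraries lie close together and far below both *TATA/TATA* libraries, while *phgdh* and *psat1* differ most among the *lmo1*-/- libraries.

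None of the 3 enzymes from glycolysis to serine passed the threshold in edgeR, and their fold changes had different signs. *phgdh*, which oxidizes 3-phosphoglycerate and commits it to serine, stood at 0.0831, 0.0791 and 1.35 RPKM in *lmo1*-/- libraries, against 2.84 and 2.59 RPKM in *TATA/TATA* libraries. The first and second *lmo1*-/- libraries held few reads, 13 and 12 on 2362 bp of exon, and the third held 234 reads, against 522 and 456 reads in *TATA/TATA* libraries. The exact 95% Poisson intervals of the first and second libraries reached no higher than 0.142 RPKM, and that of the third ran from 1.19 to 1.54 RPKM. The highest *lmo1*-/- library was therefore 17.1 times the lowest, and all 3 lay below both *TATA/TATA* libraries. The log2 fold change of *phgdh* was -2.08 ± 1.11 (SE; edgeR adjusted p = 0.2), which did not pass the threshold. Without *lmo1*-/- replicate 3 it was -4.55 (edgeR adjusted p = 0.00067), so that 1 library decided the call. *phgdh* passed the filter of 1 RPKM through both *TATA/TATA* libraries and *lmo1*-/- replicate 3 alone. That *lmo1*-/- library also had the highest sums of neutrophil, macrophage, proliferation, sympathoadrenal and erythroid markers among the 3. Its sums of lymphoid, fibroblast and interrenal markers were the lowest. The part of these cells in the level of *phgdh* was not tested.

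*psat1*, the aminotransferase of the second step, was the most abundant of the 3 genes in *lmo1*-/- tumors. It stood at 5.60, 3.79 and 9.27 RPKM in *lmo1*-/- libraries and at 4.56 and 4.74 RPKM in *TATA/TATA* libraries, so the RPKM of the genotypes overlapped and replicate 3 was again the highest. After TMM scaling the *lmo1*-/- libraries, at 4.99 to 9.58 RPKM, all lay above the *TATA/TATA* libraries, at 3.83 and 4.06 RPKM. Its log2 fold change was 0.84 ± 0.3 (SE; edgeR adjusted p = 0.077), and 0.42 with the authors' totals (adjusted p = 0.42). It passed the threshold without *lmo1*-/- replicate 2 (1.03; edgeR adjusted p = 0.038) and in DESeq2 (0.81; adjusted p = 0.042). *psph*, the phosphatase that releases serine, was low in both genotypes, at 1.09, 0.878 and 0.745 RPKM in *lmo1*-/- libraries and 1.78 and 1.92 RPKM in *TATA/TATA* libraries. Its log2 fold change was -0.56 ± 0.32 (SE; edgeR adjusted p = 0.23), and -1.03 with the authors' totals, where it passed the threshold (adjusted p = 0.045). The filter of 1 RPKM was met by *lmo1*-/- replicate 1 and by both *TATA/TATA* libraries.

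The cytosolic and the mitochondrial serine hydroxymethyltransferase, which cleave serine to glycine and a one-carbon unit on folate, differed from each other. *shmt1*, the cytosolic form, stood at 6.40, 6.76 and 7.24 RPKM in *lmo1*-/- libraries, against 16.3 and 16.1 RPKM in *TATA/TATA* libraries. In RPKM the replicates lay close together in each genotype. Their means were 6.80 ± 0.422 RPKM in *lmo1*-/- (SD, n = 3) and 16.2 ± 0.131 RPKM in *TATA/TATA* (SD, n = 2). *shmt1* was lower in *lmo1*-/- tumors, with a log2 fold change of -0.79 ± 0.16 (SE; edgeR adjusted p = 0.012), and it passed the threshold in each alternative other than those that left out a *TATA/TATA* library. *shmt2*, the mitochondrial form, stood at 3.21, 2.50 and 2.63 RPKM in *lmo1*-/- libraries and at 3.45 and 3.25 RPKM in *TATA/TATA* libraries. In RPKM the groups were separated by less than the range within either genotype, and after TMM scaling they overlapped. The log2 fold change of *shmt2* was 0.19 ± 0.23 (SE; edgeR adjusted p = 0.56), and -0.27 with the authors' totals (adjusted p = 0.43), so its direction rested on the scaling and neither value passed the threshold.

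*mthfd2*, the mitochondrial dehydrogenase and cyclohydrolase that acts on the one-carbon unit from SHMT2, stood at 5.97, 4.59 and 3.66 RPKM in *lmo1*-/- libraries, against 9.90 and 9.74 RPKM in *TATA/TATA* libraries. All *lmo1*-/- libraries lay below both *TATA/TATA* libraries, in RPKM and after TMM scaling. The log2 fold change was -0.57 ± 0.27 (SE; edgeR adjusted p = 0.16), and with the authors' totals it was -1.05 and passed the threshold (adjusted p = 0.02). None of the 6 tested genes of mitochondrial folate metabolism passed the threshold in edgeR or DESeq2, at an unadjusted p under 0.05 in edgeR the count was also 0, and limma on log2(RPKM + 0.1) called 1, which was *mthfd2*. Of all tested genes, edgeR called 19.9% lower and 16.7% higher, and limma called 31.9% lower. At an unadjusted p under 0.05 edgeR gave 23.8% lower and 22.5% higher, and DESeq2 called 22.9% and 20.1%. *mthfd2* was the most abundant of this list. *mthfd1l*, the mitochondrial formyltetrahydrofolate synthetase, ranged from 0.433 to 3.45 RPKM in *lmo1*-/- libraries and stood at 1.23 and 1.25 RPKM in *TATA/TATA* libraries.

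The cytosolic folate enzymes include the partners of *shmt1* in the use of one-carbon units. Of the 8 tested, *mthfd1b*, *mthfd1a* and *tyms* were lower in *lmo1*-/- tumors (37.5%, compared with 19.9% of all tested genes). None was higher at an adjusted or an unadjusted p under 0.05 in edgeR, or in DESeq2, compared with 16.7%, 22.5% and 20.1% of all tested genes. The median log2 fold change of the list was -0.22, against 0.047 over all tested genes. *mthfd1b*, a cytosolic trifunctional folate enzyme and the most abundant of the list, stood at 29.7, 31.7 and 31.3 RPKM in *lmo1*-/- libraries, against 76.4 and 70.6 RPKM, a log2 fold change of -0.78 ± 0.17 (SE; edgeR adjusted p = 0.015). Its paralog *mthfd1a* held 10, 9 and 11 reads in *lmo1*-/- libraries, against 576 and 480 reads in *TATA/TATA* libraries, a log2 fold change of -5.08 ± 0.29 (SE; edgeR adjusted p = 0.00028). *mthfd1a* passed the filter of 1 RPKM through the *TATA/TATA* libraries alone. The handling of reads that the paralogs share was not tested. *tyms*, the thymidylate synthase that uses a folate-bound carbon for DNA, stood at 4.72, 3.67 and 8.25 RPKM, against 20.8 and 20.6 RPKM (log2 fold change, -1.48; edgeR adjusted p = 0.0083). *tyms* is also a gene of proliferating cells. The summed proliferation markers stood at 172.7, 96.1 and 184.3 RPKM in the *lmo1*-/- libraries, and their part in the level of *tyms* was not tested. Of the 2 tested genes of the glycine cleavage system, *dldh* was the most abundant, at 46.3, 46.8 and 63.0 RPKM in *lmo1*-/- libraries and 74.9 and 71.8 RPKM in *TATA/TATA* libraries, with a log2 fold change of -0.044 (edgeR adjusted p = 0.85).

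**Figure D2:**
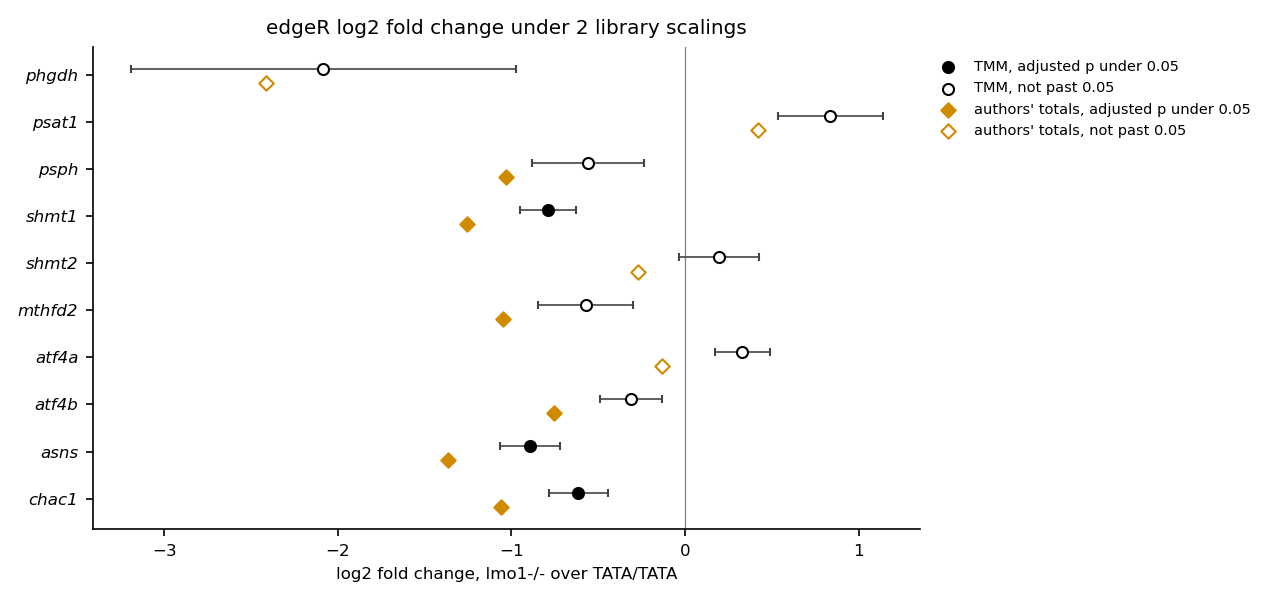
Log2 fold change of the 10 genes, *lmo1*-/- over *TATA/TATA*, from edgeR with TMM normalization (circles, with the SE) and with the totals behind the authors' RPKM (diamonds), filled where the adjusted p was under 0.05. The diamonds lie to the left of the circles in every gene, the signs of *shmt2* and *atf4a* differ between the scalings, and *asns*, *shmt1* and *chac1* are filled under both.

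The mRNA of the ATF4 factors was abundant in both genotypes. *atf4a* stood at 135.4, 143.2 and 159.5 RPKM in *lmo1*-/- libraries and at 160.8 and 159.3 RPKM in *TATA/TATA* libraries, at or above 98.1% and 97.9% of the tested genes by the mean RPKM of each genotype. In RPKM the highest *lmo1*-/- library reached the level of the *TATA/TATA* libraries. After TMM scaling all *lmo1*-/- libraries, at 158 to 189 RPKM, lay above the *TATA/TATA* libraries, at 135 and 136 RPKM. The log2 fold change of *atf4a* was 0.33 ± 0.16 (SE, edgeR adjusted p = 0.15). It became -0.13 with the authors' totals (adjusted p = 0.49), so its direction rested on the scaling. *atf4b* stood at 77.1, 49.6 and 76.2 RPKM in *lmo1*-/- libraries, against 113.5 and 114.9 RPKM in *TATA/TATA* libraries. These groups did not overlap, and the log2 fold change was -0.31 ± 0.18 (SE; edgeR adjusted p = 0.23), or -0.76 with the authors' totals, where *atf4b* passed the threshold (adjusted p = 0.043).

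Of the members named above as ATF4 targets in mammals, *asns* and *chac1* were lower in *lmo1*-/- tumors. *phgdh* and *psat1*, described above, did not pass the threshold and had fold changes of opposite sign. The other serine and one-carbon members are not counted as targets here, and of these *psph*, *shmt2* and *mthfd2* did not pass the threshold in edgeR. *asns*, the asparagine synthetase that is among the best known targets of ATF4 in mammals, stood at 12.1, 12.7 and 11.9 RPKM in *lmo1*-/- libraries, against 30.8 and 32.1 RPKM in *TATA/TATA* libraries. In RPKM the groups were far apart relative to their spread. Their means were 12.2 ± 0.4 RPKM in *lmo1*-/- (SD, n = 3) and 31.5 ± 0.883 RPKM in *TATA/TATA* (SD, n = 2). After TMM scaling the means were 14.4 ± 2.22 RPKM and 26.7 ± 1.1 RPKM (SD), a wider spread in *lmo1*-/-. The log2 fold change of *asns* was -0.89 ± 0.17 (SE, edgeR adjusted p = 0.01) and ranged from -1.01 to -0.83 when any 1 library was omitted. *asns* passed the threshold only in fits that kept both *TATA/TATA* libraries. *chac1*, a γ-glutamylcyclotransferase that degrades glutathione, stood at 21.9, 19.4 and 29.6 RPKM in *lmo1*-/- libraries, against 44.2 and 54.3 RPKM in *TATA/TATA* libraries. The groups did not overlap, although the *TATA/TATA* libraries differed from each other by more than in any other member gene relative to their mean. The log2 fold change of *chac1* was -0.62 ± 0.17 (SE, edgeR adjusted p = 0.034). Among the fits that kept both *TATA/TATA* libraries, *chac1* did not pass the threshold in 2. These were without *lmo1*-/- replicate 2 (-0.57, edgeR adjusted p = 0.079) and without a filter on low values (-0.58, edgeR adjusted p = 0.054). Without *TATA/TATA* replicates 1 and 2 in turn, the log2 fold change of *chac1* was -0.77 and -0.45.

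Ratios of 2 genes within a library do not depend on the scaling between libraries. The 6 pairs were chosen after the values had been seen, so the separation of the genotypes in them is a description and no result. *asns* stood at 0.0897, 0.0884 and 0.0745 of the RPKM of *atf4a* in *lmo1*-/- libraries, against 0.192 and 0.201 in *TATA/TATA* libraries. *chac1* stood at 0.161, 0.136 and 0.186 of *atf4a* in *lmo1*-/- libraries, against 0.275 and 0.341. Both ratios lay lower in each *lmo1*-/- library than in either *TATA/TATA* library. The ratio of *shmt1* to *shmt2* was 1.99, 2.71 and 2.75 in *lmo1*-/- libraries, against 4.73 and 4.96 in *TATA/TATA* libraries, and that of *atf4a* to *atf4b* was 1.76, 2.89 and 2.09, against 1.42 and 1.39. In the serine synthesis enzymes the ratio of *phgdh* to *psat1* was 0.0148, 0.0209 and 0.146 in *lmo1*-/- libraries, against 0.624 and 0.546, and that of *psat1* to *psph* was 5.12, 4.31 and 12.5, against 2.55 and 2.47.

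**Figure D3:**
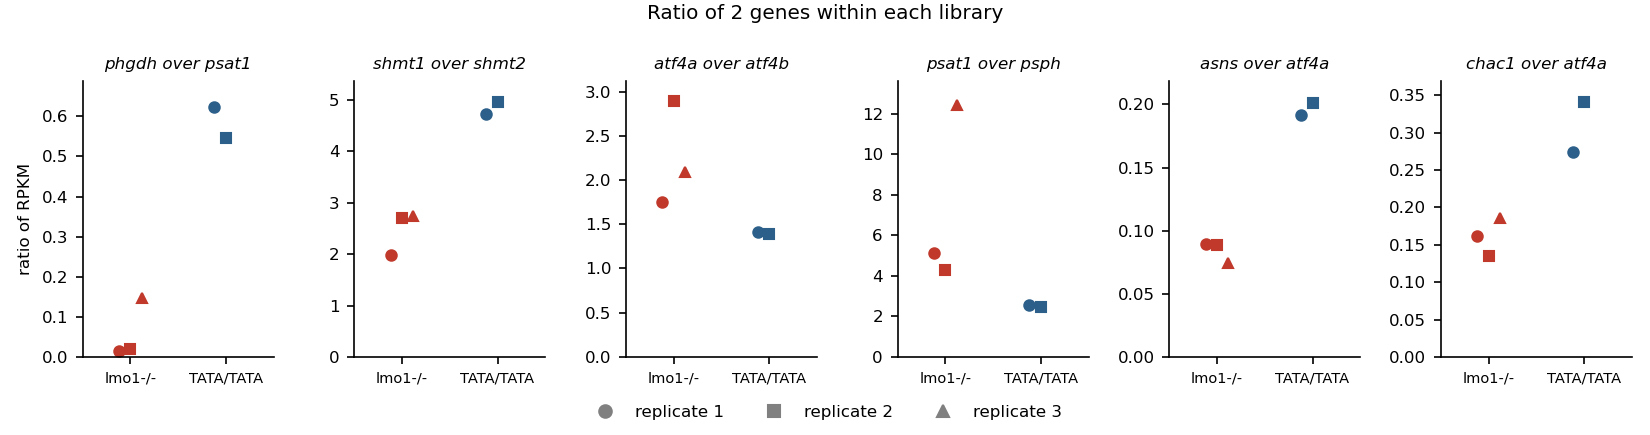
Ratio of the RPKM of 2 genes within each library, 1 panel per pair with its own linear axis from 0, *lmo1*-/- in red and *TATA/TATA* in blue, with the replicate given by the shape of the point. The *lmo1*-/- libraries lie below the *TATA/TATA* libraries for *phgdh* over *psat1*, *shmt1* over *shmt2*, *asns* over *atf4a* and *chac1* over *atf4a*, and above them for *atf4a* over *atf4b* and *psat1* over *psph*.

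A wider list of known ATF4 targets in mammals was measured in the same fit, *asns* and *chac1* included. The genes of serine synthesis, the serine hydroxymethyltransferases and folate metabolism, *cth*, the transporters and the tRNA synthetases were kept in lists of their own. Those lists hold *phgdh*, *psat1* and further genes that may count as targets, so the counts depend on which targets were put in this list. In edgeR none of the 3 tested genes of serine synthesis or the 6 of mitochondrial folate metabolism passed the threshold. Of the 19 tested genes, 7 were lower in *lmo1*-/- tumors (36.8%, compared with 19.9% of all tested genes) and *ddit4* alone was higher (5.26%, compared with 16.7%). The authors' totals gave 10 lower and 0 higher, compared with 29.7% and 6.44% of all tested genes. DESeq2 called 9 lower and 4 higher, compared with 22.9% and 20.1%. At an unadjusted p under 0.05 edgeR also gave 9 lower and 4 higher, compared with 23.8% and 22.5%. The median log2 fold change of the list was -0.50, against 0.047 over all tested genes. Besides *asns* and *chac1*, the lower genes were *jdp2b*, *cebpb*, *trib3*, *sesn2* and *herpud1*. Of these, *jdp2b* and *sesn2* reached 1 RPKM in the *TATA/TATA* libraries alone. The filter admitted both only through the genotype where they were higher, so their calls add little to the count. *jdp2b* and *cebpb* code for basic leucine zipper transcription factors that have roles outside the stress response, and CEBPB is a known regulator of myeloid cells. *cebpb* stood at 2.77, 1.98 and 4.46 RPKM in *lmo1*-/- libraries, against 73.5 and 108.9 RPKM in *TATA/TATA* libraries, a log2 fold change of -4.47 (edgeR adjusted p = 0.00042). *jdp2b* stood at 0.14, 0.0072 and 0.038 RPKM (20, 1 and 6 reads), against 12.3 and 36.3 RPKM (log2 fold change, -8.17; edgeR adjusted p = 0.0015). The summed macrophage markers differed between the genotypes as given above, and their part in these values was not tested. *trib3*, a pseudokinase that restrains the ATF4 response in mammals, stood at 1.53, 0.215 and 2.09 RPKM, against 7.84 and 11.9 RPKM (log2 fold change, -2.56; edgeR adjusted p = 0.038). *ddit4*, an inhibitor of mTORC1, stood at 11.4, 9.44 and 20.5 RPKM in *lmo1*-/- libraries, against 7.49 and 7.54 RPKM, a log2 fold change of 1.30 (edgeR adjusted p = 0.015), whereas by the authors' totals it missed the threshold (0.88; adjusted p = 0.10). *eif4ebp1*, a repressor of cap-dependent translation and the most abundant gene of the list, stood at 80.6 to 91.1 RPKM in *lmo1*-/- libraries and at 90.2 and 87.6 RPKM in *TATA/TATA* libraries, with a log2 fold change of 0.38 (edgeR adjusted p = 0.087) that became -0.077 with the authors' totals.

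The list of integrated stress response regulators, which holds *atf4a* and *atf4b* themselves, was called at about the rate of all tested genes. Of the 10 tested regulators of the integrated stress response, *ppp1r15a* and *eif2ak2* were lower and *eif2s1b* and *eif2ak3* were higher in *lmo1*-/- tumors (20.0% each way, compared with 19.9% and 16.7% of all tested genes). With *atf4a* and *atf4b* set aside, 2 of 8 were lower and 2 were higher. Under the authors' totals 3 of the 10 were lower and 0 higher, compared with 29.7% and 6.44% of all tested genes. *ppp1r15a*, which directs a phosphatase to eIF2α and is itself induced in the response, stood at 7.92, 2.11 and 10.1 RPKM in *lmo1*-/- libraries, against 49.0 and 87.0 RPKM in *TATA/TATA* libraries (log2 fold change, -2.94; edgeR adjusted p = 0.01). *eif2ak2*, the kinase PKR that double-stranded RNA activates, stood at 1.69, 2.01 and 3.28 RPKM, against 8.29 and 8.03 RPKM (log2 fold change, -1.37; edgeR adjusted p = 0.0084). The calls in the other direction rested on the scaling. *eif2s1b*, which codes for eIF2α and was the most abundant of these genes, had a log2 fold change of 0.80 (edgeR adjusted p = 0.014), or 0.33 with the authors' totals (adjusted p = 0.14). *eif2ak3*, the kinase PERK of the endoplasmic reticulum, had a log2 fold change of 0.57 (edgeR adjusted p = 0.036), or 0.11 with the authors' totals (adjusted p = 0.7).

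The counts of amino acid transporters and tRNA synthetases rested on the scaling. With the authors' totals 4 of 9 tested transporters and 5 of 21 synthetases were lower, compared with 29.7% of all tested genes, and with TMM 1 of each, compared with 19.9%. Of the transporters, *slc3a2a* was lower in *lmo1*-/- tumors, at 0.867, 0.37 and 1.55 RPKM, against 10.9 and 11.9 RPKM in *TATA/TATA* tumors (log2 fold change, -3.22; edgeR adjusted p = 0.0036). Its paralog *slc3a2b*, the most abundant of the list, stood at 34.3, 37.0 and 78.4 RPKM in *lmo1*-/- libraries and at 50.6 and 53.0 RPKM in *TATA/TATA* libraries (log2 fold change, 0.37; edgeR adjusted p = 0.41, and -0.054 with the authors' totals). SLC3A2 is the heavy chain that brings several amino acid transporters to the cell surface. Of the 21 cytosolic aminoacyl-tRNA synthetase genes, *nars* was lower and *tars* was higher with TMM (compared with 16.7% of all tested genes for higher), and the median log2 fold change was 0.010. *nars*, which charges tRNA with the product of *asns*, stood at 79.3, 69.9 and 81.3 RPKM in *lmo1*-/- libraries, against 148 and 152 RPKM in *TATA/TATA* libraries (log2 fold change, -0.50; edgeR adjusted p = 0.037). *tars* had a log2 fold change of 0.74 (edgeR adjusted p = 0.017), and 0.29 with the authors' totals (adjusted p = 0.33). *kars*, the most abundant of the list, had a log2 fold change of 0.093 (edgeR adjusted p = 0.72), and -0.38 with the authors' totals.

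Stress genes of the endoplasmic reticulum outside the ATF4 arm were called in 5 of 19 cases, all lower in *lmo1*-/- (26.3%, compared with 19.9% of all tested genes). None was higher, compared with 16.7% of all tested genes. Of the 19, 11 were lower with the authors' totals, compared with 29.7% of all tested genes. The 5 genes were *xbp1*, *ern1*, *dnajb9b*, *calr3a* and *edem1*. *xbp1*, a transcription factor of the unfolded protein response, stood at 24.2, 19.0 and 19.3 RPKM in *lmo1*-/- libraries, against 57.5 and 67.6 RPKM in *TATA/TATA* libraries (log2 fold change, -1.12; edgeR adjusted p = 0.007). *ern1*, the sensor that splices *xbp1* mRNA, had a log2 fold change of -1.62 (edgeR adjusted p = 0.0013), and *dnajb9b*, a cochaperone, one of -1.94 (edgeR adjusted p = 0.014). *dnajb9b* passed the filter of 1 RPKM through the *TATA/TATA* libraries alone. *hsp90b1* was the chaperone of this list with the highest mean RPKM over the 5 libraries. It stood at 55.2 to 67.9 RPKM in *lmo1*-/- libraries and at 110.0 and 107 RPKM in *TATA/TATA* libraries. Its log2 fold change was -0.31 (edgeR adjusted p = 0.31), or -0.80 with the authors' totals (adjusted p = 0.0081). By genotype the highest mean was that of *hspa5* in *lmo1*-/- (67.9 RPKM) and of *calr3a* in *TATA/TATA* (117 RPKM).

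In the methionine cycle and transsulfuration, which use one-carbon units and serine, 3 of 13 tested genes were higher and 3 were lower in *lmo1*-/- tumors (23.1% each way, compared with 16.7% and 19.9% of all tested genes). The balance was 2 higher and 7 lower with the authors' totals, compared with 6.44% and 29.7% of all tested genes. *mat2ab*, which makes S-adenosylmethionine, stood at 771, 656 and 581 RPKM in *lmo1*-/- libraries, against 198 and 187 RPKM in *TATA/TATA* libraries, a log2 fold change of 2.28 ± 0.24 (SE; edgeR adjusted p = 0.0013). It was the most abundant of the list and was also higher with the authors' totals (1.80, adjusted p = 0.00051). Its paralog *mat2aa* lay the other way, at 22.5, 13.8 and 27.4 RPKM, against 45.5 and 44.4 RPKM. The log2 fold change of *mat2aa* was -0.65 (edgeR adjusted p = 0.06), and -1.08 with the authors' totals (adjusted p = 0.027). *ahcy*, which clears S-adenosylhomocysteine, had a log2 fold change of 0.86 (edgeR adjusted p = 0.012), and 0.41 with the authors' totals (adjusted p = 0.15). Of the enzymes that make cystathionine from serine, *cbsa* was higher (1.02; edgeR adjusted p = 0.0075) and its paralog *cbsb* was lower (-0.72; edgeR adjusted p = 0.015). *cth*, which cleaves cystathionine to cysteine and is a target of ATF4 in mammals, stood at 32.6, 36.5 and 49.5 RPKM in *lmo1*-/- libraries, against 100.0 and 97.8 RPKM in *TATA/TATA* libraries (log2 fold change, -0.87; edgeR adjusted p = 0.011). *gnmt*, a glycine methyltransferase best known from liver, was the third lower gene (-1.70; edgeR adjusted p = 0.014). It passed the filter of 1 RPKM through the *TATA/TATA* libraries alone.

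Of the 11 tested genes of purine synthesis, 4 were higher in *lmo1*-/- tumors, namely *atic*, *gart*, *pfas* and *prps1a* (36.4%, compared with 16.7% of all tested genes), and *impdh2* was lower (9.09%, compared with 19.9%). By the authors' totals 1 was higher and 2 were lower, compared with 6.44% and 29.7% of all tested genes. *atic* and *gart* code for the enzymes that take carbon from formyl-tetrahydrofolate. *atic* stood at 40.0, 39.4 and 40.4 RPKM in *lmo1*-/- libraries, against 20.4 and 19.2 RPKM in *TATA/TATA* libraries, a log2 fold change of 1.48 ± 0.16 (SE; edgeR adjusted p = 0.0016), and was higher with the authors' totals as well (1.01; adjusted p = 0.004). The levels of *gart* were 16.6, 8.86 and 11.8 RPKM, against 6.73 and 6.90 RPKM, a log2 fold change of 1.32 (edgeR adjusted p = 0.012), and 0.86 with the authors' totals (adjusted p = 0.062). *pfas* had a log2 fold change of 1.12 (edgeR adjusted p = 0.0074), and 0.66 with the authors' totals (adjusted p = 0.065). *prps1a* had a log2 fold change of 0.81 (edgeR adjusted p = 0.012), and 0.35 with the authors' totals (adjusted p = 0.13). *impdh2*, of guanine nucleotide synthesis, stood at 11.2, 8.98 and 8.27 RPKM, against 28.6 and 28.4 RPKM (log2 fold change, -1.12; edgeR adjusted p = 0.0088), and *impdh1b*, the most abundant of the list, had a log2 fold change of 0.19 (edgeR adjusted p = 0.33), or -0.26 with the authors' totals.

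**Figure D4:**
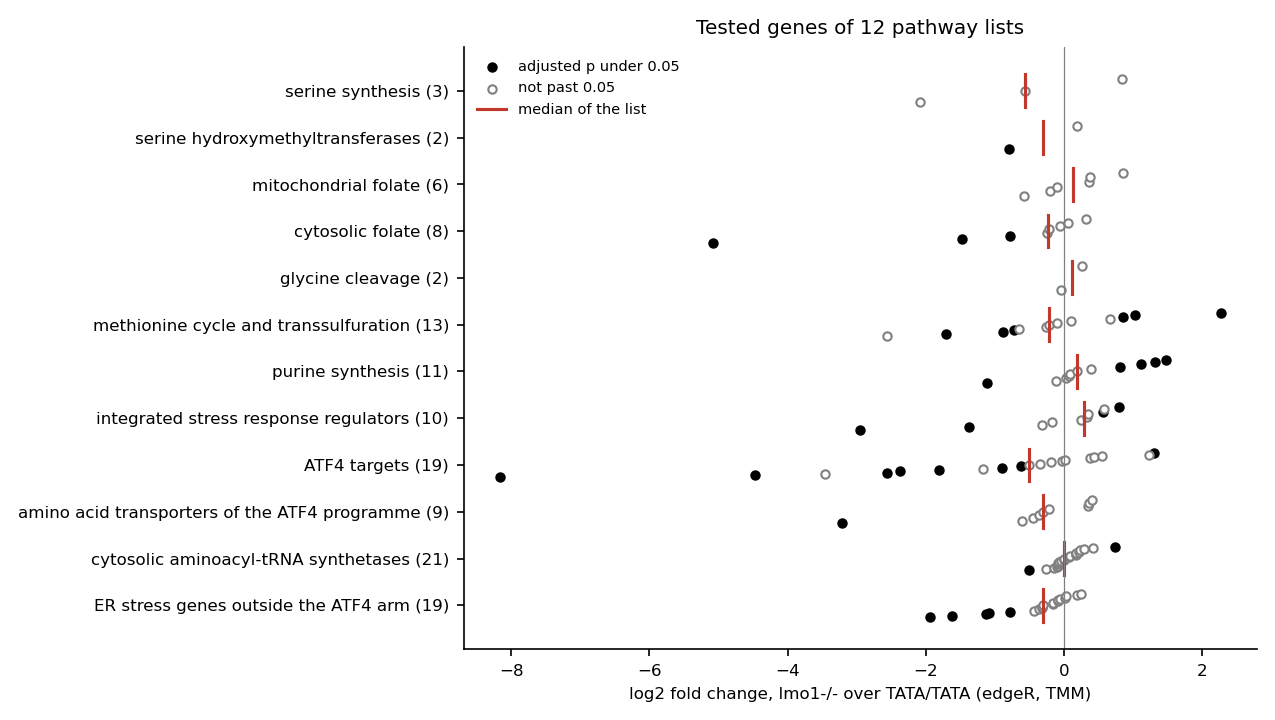
Log2 fold change, *lmo1*-/- over *TATA/TATA*, of each tested gene of 12 pathway lists (edgeR with TMM normalization), with the number of tested genes in brackets, points filled where the adjusted p was under 0.05 and the median of each list as a red line. In the ATF4 target list 7 of the 8 filled points lie below 0, in purine synthesis 4 of 5 lie above 0, and in the aminoacyl-tRNA synthetases 2 of 21 points are filled.

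Over the 12 lists together, 24 of 123 tested genes were lower (19.5%, compared with 19.9% of all tested genes) and 11 were higher (8.94%, compared with 16.7%) in *lmo1*-/- tumors, and their median log2 fold change was -0.084, against 0.047 over all tested genes. With the authors' totals 49 were lower and 3 were higher, compared with 29.7% and 6.44% of all tested genes.

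The order of the 10 genes by mean RPKM was alike at the top in both genotypes. *atf4a* came first, followed by *atf4b*, *chac1*, *asns* and *shmt1*. In *lmo1*-/- tumors *psat1* came next, then *mthfd2*, *shmt2*, *psph* and *phgdh*, and the neighbours *shmt1* and *psat1*, *psat1* and *mthfd2*, and *psph* and *phgdh* overlapped between libraries. In *TATA/TATA* tumors *mthfd2* lay above *psat1*, and *phgdh* above *psph*, with no overlap between neighbours in the 2 libraries. By mean RPKM, *phgdh* was at or above 10.3% of the tested genes in *lmo1*-/- and 30.1% in *TATA/TATA* tumors, whereas *psat1* was at or above 65.1% and 46.6% and *asns* 79.1% and 88.5%.

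By the distance between profiles of log2 TMM-scaled counts, centred over the 5 libraries, the tested genes near to *atf4a* included *ebag9* (0.038), the nearest of all, and *pitpnbl* (0.053). *ebag9* stood at 39.8, 41.7 and 46.2 RPKM in *lmo1*-/- libraries and at 45.8 and 46.8 RPKM in *TATA/TATA* libraries. For *phgdh*, the gene with the largest fold change among the 10, the nearest included *CR381686.2* (0.53), the nearest of all, and *zgc:154040* (0.71). Both were also low in the first and second *lmo1*-/- libraries and intermediate in the third. *zgc:154040* stood at 0.386, 0.292 and 4.85 RPKM in *lmo1*-/- libraries, against 6.77 and 6.73 RPKM in *TATA/TATA* libraries.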

How the data were processed

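RNA-Seq of sorted EGFP+ cells gave 3 *lmo1*-/- and 2 *TATA/TATA* libraries, named by genotype and number in the labels. The authors aligned paired-end reads to danRer10 (GRCz10) with HISAT2 2.1.0, the version in the submitters' processing notes, and deposited raw counts per gene name from htseq-count on Ensembl genes, counted by strand. The authors computed the deposited RPKM from these counts, the non-redundant exon length and the mapped reads, of which 70.9% to 76.6% were counted on genes. The counts were fitted with edgeR 4.0.16 in R 4.3.3 (TMM, quasi-likelihood F-test, two-sided) for the 13484 genes that reached 1 RPKM in 2 or more libraries, with a threshold of 0.05 on the Benjamini-Hochberg adjusted p. Some genes of the pathway and marker lists met this filter in the *TATA/TATA* libraries alone, and so were admitted only through the genotype where they were higher. Among these were *jdp2b*, *sesn2*, *mthfd1a*, *gnmt*, *dnajb9b*, the macrophage markers *mpeg1.2*, *csf1rb* and *grn2*, the proliferation markers *aurka* and *ccna2*, and the fibroblast marker *col1a1b*. Each standard error is the absolute log2 fold change divided by the square root of F. Alternatives were DESeq2 1.42.0, limma 3.58.1 on log2(RPKM + 0.1), other pseudocounts, RLE factors, the authors' library totals, no filter, a mean of at least 5 RPKM, a replicate block and the omission of single libraries.

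The 10 genes and all lists were chosen with earlier results of these data known. Named beside the 10 are, for each pathway list, up to 3 genes called in each direction with the largest change and the most abundant gene, and the most abundant marker of the lists that are given; others were named after their values were seen. Further marker lists held erythroid (most abundant, *hbba1*; 3 of 5 tested genes higher in *lmo1*-/-), fibroblast (*col1a1b*; the 1 tested gene lower) and interrenal genes (*star*; 1 of 6 tested genes higher). The shares of all tested genes were 19.9% lower and 16.7% higher. *col1a1b* met the filter in the *TATA/TATA* libraries alone, so its call adds little. With the authors' totals 2 of the 5 erythroid genes were higher, compared with 6.44% of all tested genes. A planned search of promoters for ATF4 and MYC motifs was not run, and no sequence or coordinate is given. 1 gene of similar pattern is not reported here.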

Additional observations from a re-analysis of the deposited data

How the results depend on the processing

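Among the 14 alternatives, the calls changed most with the scaling and with an omitted *TATA/TATA* library. With the authors' library totals, 6 of the 10 genes were lower. With limma on log2(RPKM + 0.1), log2(RPKM + 1) and log2(RPKM + 0.01), which keep that scaling, 7, 7 and 6 were lower. Of the 13484 tested genes, these fits in the same order called 4006, 4308, 4581 and 4206 lower. *psph* then had log2 fold changes of -1.03, -0.97, -0.58 and -1.04, *mthfd2* of -1.05, -1.06, -0.93 and -1.08, and *atf4b* of -0.76, -0.78, -0.78 and -0.78, each past the threshold. In these same fits the values of *shmt2* were -0.27, -0.27, -0.21 and -0.28 and those of *atf4a* -0.13, -0.14, -0.13 and -0.14, the opposite sign to TMM. *phgdh* passed the threshold with limma on log2(RPKM + 0.1) (-2.96) and log2(RPKM + 1) (-1.41), and *psat1* with DESeq2 (0.81), which thus called 1 gene higher, compared with 20.1% of all tested genes. *chac1* was at -0.58 without a filter. With single libraries omitted, the log2 fold change ran from -4.55 to -1.59 for *phgdh*, 0.51 to 1.03 for *psat1*, -0.88 to -0.75 for *shmt1*, -1.01 to -0.83 for *asns* and -0.77 to -0.45 for *chac1*. With an *lmo1*-/- library omitted, 2 to 4 of the 10 genes were lower, compared with 18.2% to 24.9% of all tested genes. The count higher was then 0 to 1, compared with 14.7% to 23%. A left-out *TATA/TATA* library leaves 1, which is assumed to vary like the *lmo1*-/- libraries.

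Over all tested genes, 2678 were lower and 2255 higher. The counts lower were 868 with a mean of at least 5 RPKM (fewer genes tested), 4308, 4581 and 4206 in the 3 limma fits, and 1405 to 3355 with a library left out. The counts higher were 960 with that mean, 869 with the authors' totals, 906, 941 and 887 in the limma fits, and 446 to 3101 with a library left out. Of all calls, 54.3% were lower with TMM and 82.2% with the authors' totals. Over the pathway lists, 24 were lower and 11 higher. The counts lower were 15 with a mean of at least 5 RPKM, 49 with the authors' totals, 51, 53 and 50 in the limma fits and 7 to 30 with a library left out; the counts higher were 3 with the authors' totals, 18 with DESeq2, 3 in each limma fit and 2 to 17 with a library left out. Where not stated, the cause was not tested.

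The replicate numbers are shared between genotypes, and the labels do not say whether same-numbered libraries belong together. Their deviations from the group means correlated across genes at 0.012 and -0.02. With 2 *TATA/TATA* libraries these deviations mirror each other, and the 2 libraries lay close together, so a pairing could not be judged from these values. The fit with a replicate block, in which *lmo1*-/- replicate 3 has no partner and drops out, leaves 1 residual degree of freedom. It called 4 of the 10 genes lower, compared with 22.3% of all tested genes, and gave -4.51 for *phgdh*, which repeats the omission of that library.

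Among the 41 other named genes, the sign turned for *dldh* without *lmo1*-/- replicate 1 (0.029; -0.15 to 0.029 over all omissions), for *slc3a2b* without *lmo1*-/- replicate 3 (-0.028; -0.028 to 0.56) and for *kars* without *lmo1*-/- replicate 2 (-0.030; -0.030 to 0.14). With the authors' totals and the limma fits with pseudocounts of 0.1, 1 and 0.01, it turned for *impdh1b* (-0.26, -0.27, -0.26 and -0.27), *eif4ebp1* (-0.077, -0.079, -0.078 and -0.079), *slc3a2b* (-0.054, -0.16, -0.16 and -0.16) and *kars* (-0.38, -0.38, -0.37 and -0.38). After rescaling RPKM by TMM, the log2 ratio of the mean summed RPKM turned above 0 for serine synthesis (0.15), mitochondrial folate (0.023), glycine cleavage (0.072), purine synthesis (0.35), the stress response regulators (0.20) and the transporters (0.052). The reads of *phgdh* were few, 13 and 12, in the *lmo1*-/- libraries where it was lowest. Those libraries differed from *lmo1*-/- replicate 3, with 234 reads, by more than counting error.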
